A study of Ceratotherium simum with 9 samples.

Results

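Striated muscle makes a small set of miRNAs of its own, miR-1, miR-133, miR-206, miR-208 and miR-499, and their entries were followed here in extracellular vesicles (EVs) of follicular fluid (FF) from the southern white rhinoceros. Rhinoceros reads had been named after horse (eca), cattle (bta) or human (hsa) miRNAs. Entries were chosen by name (miR-1, miR-133a, miR-133b, miR-206, miR-208a, miR-208b or miR-499, any species prefix, copy number or arm) and by level, above 10 CPM (counts per 1000000 reads, TMM-adjusted) in at least 2 of the 3 libraries of at least 1 stage. Of 14 such entries among 3886 deposited names, 4 passed: eca-miR-1, eca-miR-206, eca-miR-499-5p and eca-miR-133a. They are 4 of the 417 miRNAs that met the same level rule. Because the rule reads the CPM of each stage, an entry that passed through 1 stage only would have to differ between stages, and eca-miR-206 and eca-miR-133a missed it in the Dominant stage. Their values and p-values against that stage are therefore a description and support nothing by themselves.

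FF was aspirated from 2 females of Ceratotherium simum simum that had been stimulated with chlormadinone acetate followed by Deslorelin, a GnRH analog. Follicles were sorted by diameter into the Growing (G) group of 11 to 17 mm, the Dominant (D) group of 18 to 29 mm and the Pre-ovulatory (P) group of 30 to 34 mm. Each group had 3 small-RNA libraries, made from EVs that were pooled over both animals as technical replicates, so p-values measure the spread between pools and not between animals. The ages of the females are not given in the sources used here, and all groups shared the stimulation and a flushing solution with heparin.

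In muscle, miR-1 and miR-133a are cut from shared primary transcripts that MEF2, SRF and MyoD switch on, while miR-206 and miR-133b come from a separate skeletal muscle transcript. The miR-208 and miR-499 genes lie in introns of myosin heavy chain genes. These miRNAs steer myoblasts between division and differentiation, and in blood they are known as markers of damaged heart or skeletal muscle. Striated muscle is no regular part of a follicle, whose wall holds smooth muscle cells in the theca externa.

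miRNAs bind their targets through the seed, bases 2 to 8 of the mature sequence. A sequence was at hand for 1 of the 4 entries, eca-miR-133a, and it is shown with its seed in capitals (DNA letters, 5′ to 3′) because this miRNA had no read in the D group:
eca-miR-133a: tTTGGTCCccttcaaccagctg
The entry has 22 bases, and none of the other 43 sequences in the same supplementary tables carried its seed, TTGGTCC. miR-1 and miR-206 are known to share a seed with each other. The sequences of eca-miR-1, eca-miR-206 and eca-miR-499-5p were not used here.

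The libraries held 18384 to 149281 miRNA reads. A read was worth 5.64 CPM in G3 and 38.6 CPM in P2, the extremes, and a miRNA with no read in a library may have had up to 3 reads, or 16.9 CPM in G3 and 115.9 CPM in P2. Intervals and limits here cover counting error only, since reads carried no molecular identifiers. In D2 eca-miR-148a took 71.8% of the reads and in G1 bta-miR-11980 took 35.0%. The deposited CPM were scaled by TMM, the trimmed mean of M-values, a scaling meant to limit the weight of such entries. Of the gonad list, bta-miR-202 was the only entry expressed, at 352 to 3677 CPM in 8 libraries and with no read in D2. The 4 miRNAs together held 1.17 to 4.53% of the reads of the G libraries, 0.324 to 1.54% of the D libraries and 1.82 to 3.13% of the P libraries, 8704 reads in all. The lowest share, 0.324%, was that of D2, where eca-miR-148a took 71.8% of the reads. The cells that released the vesicles were not identified. Fewer vesicles with these miRNAs, less of them per vesicle and more reads of other miRNAs cannot be told apart in such shares.

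**Figure D1:**
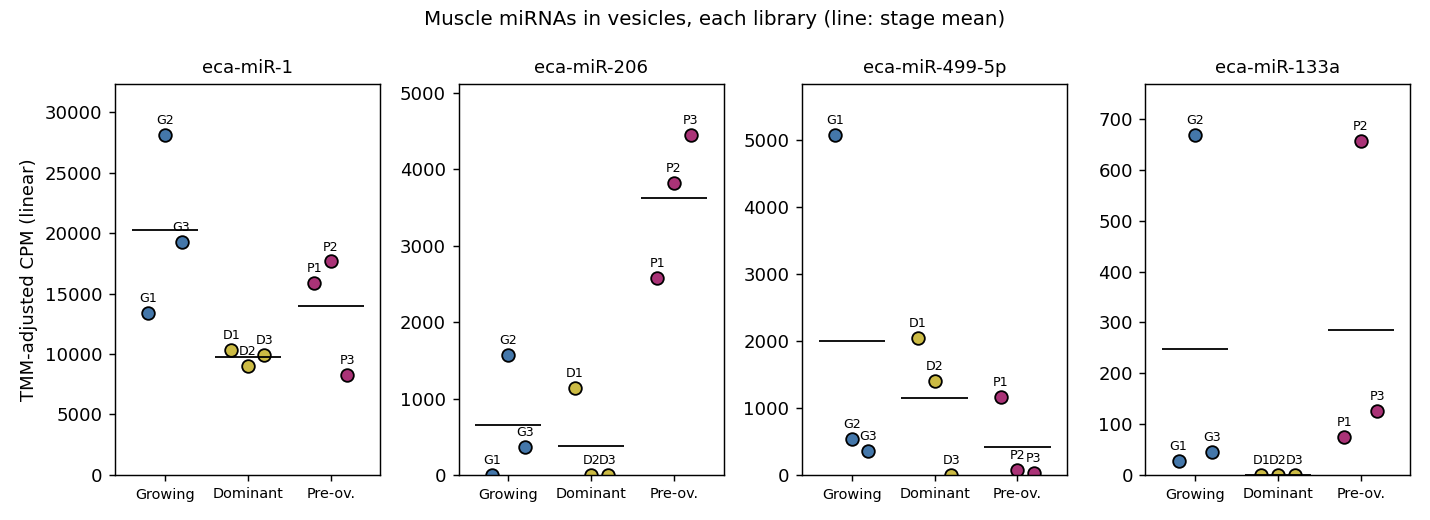
CPM of each muscle miRNA (vertical axes, linear, TMM-adjusted, each with its own range) in the 3 libraries of the Growing, Dominant and Pre-ovulatory stages, with a line at the stage mean. eca-miR-1 stayed between 8281 and 28151 CPM, whereas each of the other 3 had libraries without a read.

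miR-1, which in mouse muscle represses the histone deacetylase HDAC4 and so favors differentiation, was by far the most abundant of the set. eca-miR-1 had 13387, 28151 and 19251 CPM in G1, G2 and G3. It had 10335, 9043 and 9951 CPM in D1, D2 and D3. In P1, P2 and P3 it had 15902, 17662 and 8281 CPM. The D libraries lay close together and below every G library, as they did for 9.59% of the 417 miRNAs, while P1 and P2 lay within the range of the G libraries and P3 was the lowest of all 9.

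With 7610 reads, at least 329 in any library, eca-miR-1 ranked 15th of the 417 by mean CPM and 5th (G2) to 24th (D2) within single libraries. Its standard deviation over the 9 libraries, 0.59 on the log2 scale, was the 14th lowest among the 84 miRNAs with the highest means, whose median was 1.01. Stage means ± SD over 3 libraries each were 20263 ± 7434 CPM for the G group, 9776 ± 664 for the D group and 13949 ± 4986 for the P group. G had the highest mean, then P, then D, and neighbors in this order did not differ beyond their spread. The log2 change was -0.99 in D vs. G (standard error 0.50, limma adjusted p = 0.469), -0.55 in P vs. G (adjusted p = 0.772) and 0.44 in P vs. D (adjusted p = 0.699). Over the 3 stages the exact permutation p was 0.143 (adjusted p = 0.621 over the 417). As a share of reads, eca-miR-1 took 0.280% of D2 and 1.13 to 1.18% of the other D libraries, so the D libraries were close together on the TMM-adjusted scale and not as shares. Scaled to equal read totals, the change was -1.47 in D vs. G and 1.27 in P vs. D. That scaling moved the median of all 417 miRNAs from -0.43 to -0.77 and from 0.16 to 0.70, and relative to these medians eca-miR-1 was at -0.70 and 0.57, against -0.56 and 0.28 in deposited CPM.

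miR-206, the skeletal muscle member, is known in mice for its part in regeneration and for repressing the gap junction protein connexin 43 in myoblasts. Here it was read in each P library and in 3 of the other 6. eca-miR-206 had 0, 1573 and 367 CPM in G1, G2 and G3. It had 1142, 0 and 0 CPM in D1, D2 and D3. In P1, P2 and P3 it had 2579, 3826 and 4455 CPM. Every P library was above every G library, as for 3.60% of the 417 miRNAs, and above every D library, as for 12.2%.

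These values rest on 112 reads in G, 42 in D, all of them in D1, and 414 in P. The libraries with no read, G1, D2 and D3, allow at most 64.9 to 82.0 CPM, below the 367 CPM of G3, the lowest library with reads. P had the highest mean, 3620 ± 955 CPM, followed by G with 647 ± 823 and D with 381 ± 660 (SD, n = 3 each), and G and D did not differ beyond their spread. eca-miR-206 missed the level rule in D, where only D1 exceeded 10 CPM. In reads pooled over the libraries it was 10.5-fold higher in P than in D (95% exact interval 7.61 to 14.7) and 7.56-fold higher in P than in G (6.12 to 9.40), intervals that leave out the spread between libraries. Without D2 or D3 the first of these was 6.64 and 6.87, and the second was 11.4 without G2 and 4.92 without G3. In D the pooled level was 0.722 times that in G, 1.14 without D2, 1.10 without D3 and 1.09 without G2, and at least 13.7-fold lower without D1, so D vs. G has no direction in pooled reads.

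The fitted log2 change of eca-miR-206 was 6.18 in P vs. D (standard error 1.90, limma adjusted p = 0.141), the 2nd highest of the 417, and 4.29 in P vs. G (1.90, adjusted p = 0.550), the 3rd highest. Neither was called, where limma called 2.64% and 0.480% of all. In D vs. G the value was -1.90 (adjusted p = 0.698). Over the 3 stages the exact permutation p was 0.0786 (adjusted p = 0.556 over the 417). The fitted sizes depend on the pseudocount where libraries have no read. D1 set the size of the P vs. D value: without it the log2 change was 8.47 (adjusted p = 0.0739), and by pooled reads the P group was at least 104-fold above the D group, at a floor of 3 reads over the D libraries. edgeR gave 3.22 in P vs. D (adjusted p = 0.309) and DESeq2 3.26 (adjusted p = 0.288), and with no filter on level beyond 1 read the limma adjusted p was 0.183. Leaving out G1, which had no read, put it at 0.0801. Over all alternatives its adjusted p ranged from 0.0739 to 0.319.

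miR-133a, which in mouse represses SRF and favors myoblast division, is made from the same transcripts as miR-1 in muscle. eca-miR-133a was the least abundant of the set, with 55 reads. It had 27.3, 669 and 45.1 CPM in G1, G2 and G3, or 1, 20 and 8 reads. In D1, D2 and D3 it had no read. In P1, P2 and P3 it had 74.7, 657 and 125.9 CPM, or 4, 17 and 5 reads. G2 and P2 were high and close to each other, and the D libraries were listed below all others.

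A library of the D group without a read allows up to 64.9 to 81.6 CPM. The values of G1 and G3 lie under that range. P1 lies within it, above the limits of D2 (64.9 CPM) and D3 (68.9 CPM) and below that of D1. A difference of any single D library from G1 or G3, or of D1 from P1, was therefore not detectable at this depth. Over the D libraries together 3 reads come to 23.7 CPM, below G1, G3 and P1, and the bounds that follow use that floor. P had 286 ± 322 CPM and G 247 ± 366 (SD, n = 3 each), which did not differ beyond their spread, and D was listed at 0. Pooled reads put P at least 9.20-fold above D (26 reads against 0). The bound was 4.07-fold without P2, 14.1-fold without P1, and 5.84-fold and 6.04-fold without D2 or D3. D was at least 5.02-fold below G (0 reads against 29). This bound was 1.78-fold without G2, 13.3-fold without G3, and 3.18-fold and 3.29-fold without D2 or D3.

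The log2 change of eca-miR-133a was 4.30 in P vs. D (standard error 1.37, limma adjusted p = 0.148), the 6th highest of the 417. It was -3.48 in D vs. G (1.37, adjusted p = 0.402), the 7th lowest, and 0.82 in P vs. G (adjusted p = 0.905). Over the 3 stages the exact permutation p was 0.0536 (adjusted p = 0.508 over the 417). edgeR gave 6.93 in P vs. D (adjusted p = 0.157) and DESeq2 5.99 (adjusted p = 0.0366). With no filter on level beyond 1 read the limma adjusted p was 0.252 in P vs. D and 0.664 in D vs. G. Over all alternatives the adjusted p ranged from 0.0366 to 0.365 in P vs. D, and from 0.0906 to 0.664 in D vs. G.

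miR-499, from an intron of the slow myosin gene MYH7B, is known from heart and slow muscle fibers. eca-miR-499-5p had 5081, 536 and 361 CPM in G1, G2 and G3. It had 2040, 1406 and 0 CPM in D1, D2 and D3. In P1, P2 and P3 it had 1159, 77.3 and 25.2 CPM. The 3 groups overlapped, and in each of them 1 library stood far from the other 2.

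The highest library, G1, had 186 of the 471 reads, while P2 and P3 had 2 and 1. D3 had none, which allows up to 68.9 CPM there, more than the 25.2 CPM of P3. From highest to lowest the means were those of G (1993 ± 2676 CPM), D (1149 ± 1044) and P (420.3 ± 639.8; SD, n = 3 each), and neighbors did not differ beyond their spread. The log2 change was -1.72 in D vs. G (standard error 1.88, limma adjusted p = 0.738), -2.72 in P vs. G (1.88, adjusted p = 0.752) and -1.01 in P vs. D (1.88, adjusted p = 0.836). Over the 3 stages the exact permutation p was 0.582 (adjusted p = 0.831 over the 417). Without D3 the D vs. G value was 0.75, and without D1, D2 or P3 the P vs. D value was 0.36, 0.097 or 0.055, so no direction can be given for either.

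**Figure D2:**
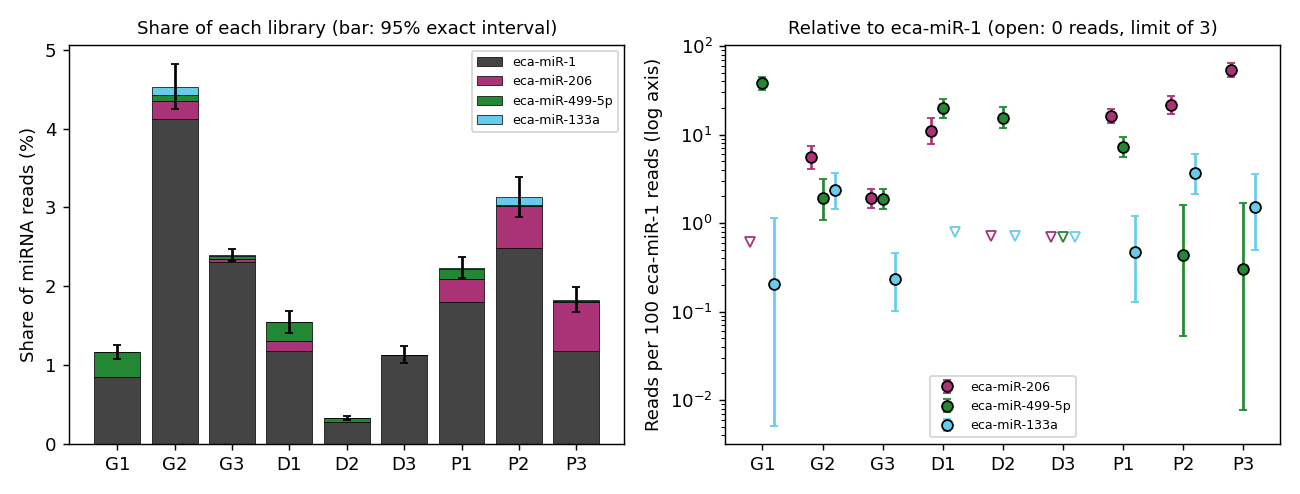
Left, share of the miRNA reads of each library (vertical axis, %) taken by the 4 muscle miRNAs, stacked, with the exact 95% interval of their sum. Right, reads of eca-miR-206, eca-miR-499-5p and eca-miR-133a per 100 reads of eca-miR-1 (log axis) with exact 95% intervals, open triangles marking 3 reads where a library had none. eca-miR-206 was at 16.2 to 53.8 in the P libraries and at or below 11.1 in all others.

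The mix of the set differed from library to library. Reads of eca-miR-206 per 100 reads of eca-miR-1, a ratio that does not depend on the scaling, were 16.2, 21.7 and 53.8 in P1, P2 and P3, against 11.1 in D1 and none in D2 and D3. In G they were 5.59 in G2, 1.91 in G3 and none in G1. The ratio shares its reads with the CPM and is no independent measure.

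For eca-miR-499-5p the ratio was highest in G1 at 38.0, followed by D1 with 19.7, D2 with 15.6 and P1 with 7.29. It was 1.90 in G2 and 1.88 in G3, and below 1 in P2 (0.438) and P3 (0.304). The order of these libraries crossed the stages.

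eca-miR-133a stayed far below its transcript partner everywhere. A single read of it came with 26.9 reads of eca-miR-1 in P2, 42.05 in G2, 65.8 in P3, 213 in P1, 426 in G3 and 490 in G1. How well each sequence was captured in the libraries was not measured here, so the ratio between the pair is one of reads and not of molecules.

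In D3 all of the 433 muscle reads were eca-miR-1. In P3 eca-miR-1 made up 64.3% of the muscle reads and eca-miR-206 34.6%, the largest share of any of the other 3 in a library, and in G1 eca-miR-499-5p made up 27.5%.

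The remaining 10 muscle entries had few or no reads. eca-miR-133b, the skeletal muscle partner of miR-206, had 1 read in G3 and 1 in P2, and hsa-miR-133a-5p had 1 read in P2. hsa-miR-1-5p, the passenger arm, had 1 read in G3. The heart-muscle entries eca-miR-208a, eca-miR-208b, hsa-miR-208a-5p and hsa-miR-208b-5p had no read in any library, nor had eca-miR-499-3p, hsa-miR-499b-3p and hsa-miR-499b-5p, so up to 3 reads per library remain possible for each. Against 414 reads of eca-miR-206 in the P group, eca-miR-133b from the same transcript had 1. Reads were matched with at most 2 mismatches, and whether reads of miR-133b were counted under eca-miR-133a was not tested. Nor was it tested whether reads of miR-206 and miR-1 were counted under each other, on which their ratio depends.

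**Figure D3:**
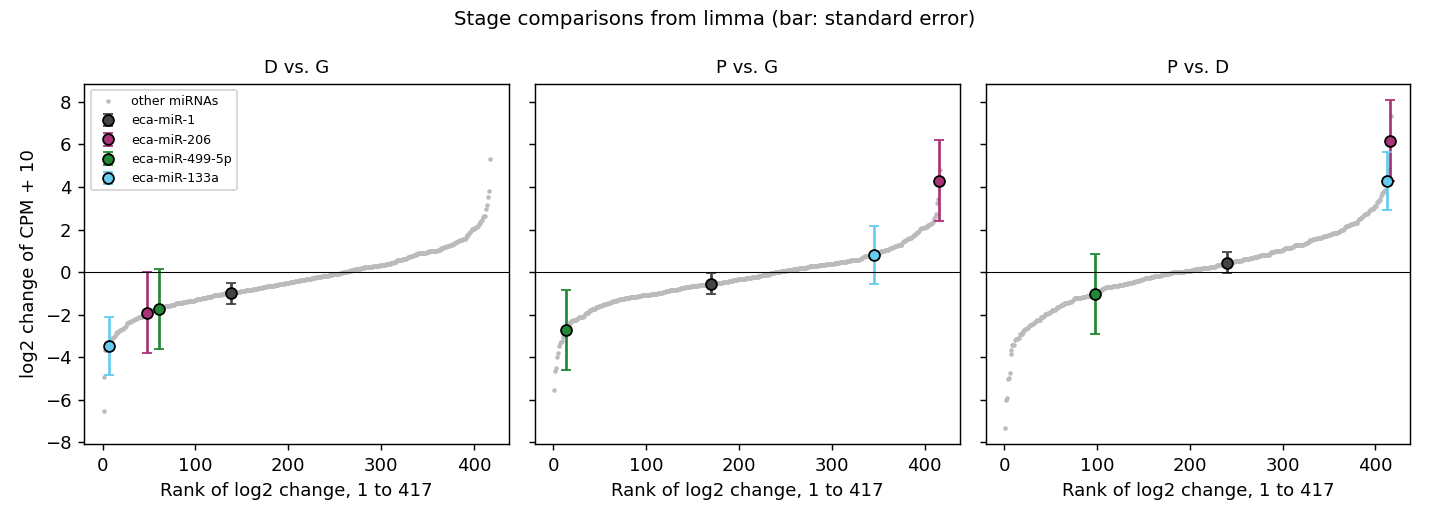
Log2 change of CPM + 10 (vertical axis) of all 417 miRNAs in order of size (horizontal axis, rank) in D vs. G, P vs. G and P vs. D, with the 4 muscle miRNAs in color and their standard errors as bars. In P vs. D eca-miR-206 (6.18) and eca-miR-133a (4.30) stood near the upper end and eca-miR-1 (0.44) in the middle.

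Across the set, limma called none of the 4 miRNAs at an adjusted p under 0.1 and at least a 2-fold change. The share of all 417 called was 0.959% for D vs. G, 0.480% for P vs. G and 2.64% for P vs. D. At an unadjusted p under 0.05 there was 1 in D vs. G (eca-miR-133a), 1 in P vs. G (eca-miR-206) and 2 in P vs. D (both of these), where 9.35%, 7.43% and 14.6% of all passed. edgeR called 0 of the 4 in each comparison, beside 4, 3 and 7 of all 417. At an unadjusted p under 0.05 edgeR had 1, 0 and 1 of the 4, beside 64, 48 and 69 of all. DESeq2 called 1, 0 and 1, each time eca-miR-133a, beside 14, 14 and 46 of all. Its adjusted p was missing for 70, 189 and 150 of all. The comparisons share libraries, so they do not stand for each other.

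By listed values that do not overlap, eca-miR-206 and eca-miR-133a were higher in P than in D, where 12.2% of all miRNAs were. eca-miR-206 was higher in P than in G, where 3.60% were, and eca-miR-1 and eca-miR-133a were lower in D than in G, where 9.59% were. For eca-miR-133a this sets libraries with no read against G1 and G3, which lie within what each of those libraries allows, and P1, within what D1 allows. It is therefore a statement about the listed values alone. With 3 libraries against 3 an exact two-sided permutation test cannot go below p = 0.10. As a description, the median log2 change of the 4 was -1.81 (D vs. G), 0.14 (P vs. G) and 2.37 (P vs. D), beside -0.43, -0.28 and 0.16 for all 417. The P vs. D median stands for no single member. eca-miR-499-5p was at -1.01, eca-miR-1 at 0.44, eca-miR-133a at 4.30 and eca-miR-206 at 6.18. The last 2 had D libraries without a read.

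**Figure D4:**
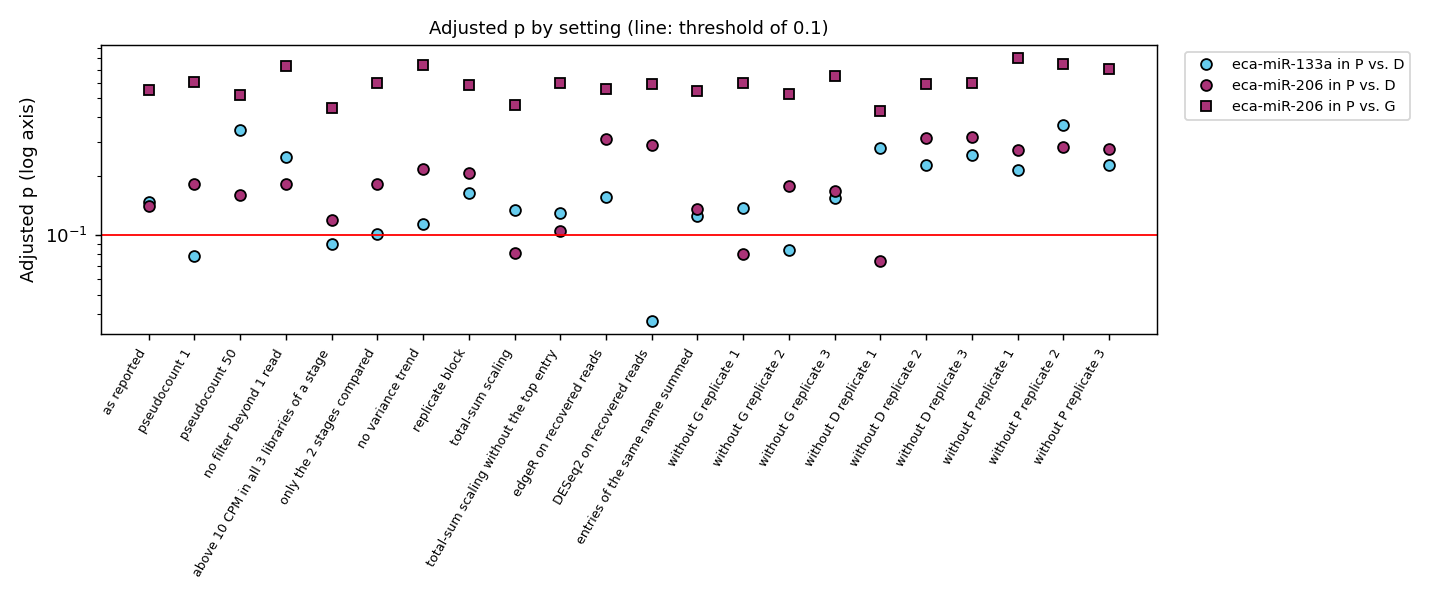
Adjusted p (log axis) of eca-miR-206 in P vs. D and P vs. G and of eca-miR-133a in P vs. D, under each way of processing the data (horizontal axis), with a line at the threshold of 0.1. The P vs. D values of both fell on either side of the line, and that of eca-miR-206 in P vs. G stayed above it.

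Other miRNAs tied to muscle differentiation but made in many tissues (miR-486, miR-378, miR-26a, miR-31 and others) were counted beside the muscle set. Of their 43 entries 31 were expressed, led by eca-miR-26a and eca-miR-486-5p. In D vs. G 1 of the 31 rose, beside 0.719% of all. In P vs. D 2 fell, beside 1.68% of all that fell and 0.959% that rose. limma called 0 of them in P vs. G, with 4 at an unadjusted p under 0.05, where edgeR called 0 and DESeq2 2. Of all 417, 7.43% had such a p in limma, and edgeR called 3 and DESeq2 14. The riser was eca-miR-378, from an intron of PPARGC1B (log2 change 5.32, limma adjusted p = 0.0407). The 2 that fell were eca-miR-486-5p, which is made in red cells as well as muscle (-2.90, adjusted p = 0.0476), and eca-miR-31, a repressor of the muscle regulator Myf5 that is also known from keratinocytes (-5.99, adjusted p = 0.0891). The median change of the 31 was -0.31 (D vs. G), -0.50 (P vs. G) and -0.27 (P vs. D).

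Markers of other cell types were counted in the same way, and their part in the values of the muscle miRNAs was not tested. The list counts here and in the next paragraph stand beside these shares of all 417. limma called 0.959%, 0.480% and 2.64% in D vs. G, P vs. G and P vs. D. In P vs. D 0.959% rose and 1.68% fell. At an unadjusted p under 0.05 limma had 9.35%, 7.43% and 14.6% in the same order. edgeR called 4, 3 and 7 of the 417, and DESeq2 14, 14 and 46. For smooth muscle (5 of 5 entries expressed, led by eca-miR-143 and bta-miR-143) the summed level was 8937 to 26751 CPM in G, 7630 to 26199 in D and 25315 to 30810 in P. The fibroblast and stroma list (6 of 6, led by eca-miR-199a-3p and eca-miR-199a-5p) summed to 1573 to 5373 CPM in G, 1414 to 4046 in D and 3448 to 8932 in P. In both lists limma and edgeR called 0 in each comparison, and DESeq2 called 2 of each list in P vs. D. At an unadjusted p under 0.05 limma had 1 of each list in D vs. G and 2 in P vs. D, with 0 in P vs. G. The neural list (4 of 7, led by eca-miR-9a and bta-miR-9-5p) had 2008 to 47542 CPM in G, 850 to 1925 in D and 7960 to 19382 in P, and bta-miR-9-5p rose in P vs. D. In D vs. G limma called 0 of the neural list, with 3 of 4 at an unadjusted p under 0.05, where edgeR called 1 and DESeq2 3. Among the 3 in limma were eca-miR-9a and bta-miR-9-5p, horse and cattle entries of miR-9 and so not separate markers. For the summed neural list, as for eca-miR-206, every P library was above every D library, a pattern that 12.2% of the 417 single miRNAs showed.

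The leukocyte and endothelium sums were lower in every P library than in any G or D library. Most of the endothelium sum was eca-miR-126-3p, the only 1 of its 3 entries that was lower in P vs. D (log2 change -1.33). The other 2 were higher, among them bta-miR-126-3p (1.98), and the median of the 3 was 0.64. In P vs. G 2 of the 3 were lower and 1 was higher. Of the 9 leukocyte entries 9 were lower in P vs. D and 7 in P vs. G. The red-cell list (5 of 8, led by bta-miR-451 and eca-miR-486-5p) summed to 37592 to 159300 CPM in G, 82089 to 214200 in D and 33508 to 57460 in P, with eca-miR-486-5p falling in P vs. D. Leukocyte entries (9 of 12, led by hsa-miR-223-5p and bta-miR-142-5p) had 1448 to 3682 CPM in G, 3699 to 9433 in D and 766 to 1198 in P, and bta-miR-142-5p and eca-miR-142-3p fell in P vs. D. Squamous epithelium (3 of 6, led by eca-miR-205 and eca-miR-31) had 164 to 5858 CPM in G, 2899 to 5113 in D and 18.7 to 1410 in P, and both leading entries fell in P vs. D. In P vs. G limma called 0 of the leukocyte and squamous lists, with 2 and 1 at an unadjusted p under 0.05, edgeR called 0 and 1, and DESeq2 called 2 of each. Endothelium (3 of 3, led by eca-miR-126-3p and bta-miR-126-3p) had 7513 to 10943 CPM in G, 10961 to 16117 in D and 4561 to 6335 in P, and liver (1 of 2, eca-miR-122) 7309 to 20244 CPM in G, 20499 to 43082 in D and 12213 to 17796 in P. Of both lists limma and edgeR called 0, with 1 at an unadjusted p under 0.05 (liver in D vs. G, endothelium in P vs. D), and DESeq2 called 1 for endothelium in P vs. D.

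The miRNAs whose log2 levels over the 9 libraries were most like those of each muscle miRNA were mostly sparse, so that likeness is a description of few reads. For eca-miR-1 they were hsa-miR-431-3p (Pearson's r = 0.928, 13 reads), eca-miR-126-5p (0.880, 69 reads) and eca-miR-99b (0.878, 1373 reads). For eca-miR-206 they were hsa-miR-501-3p (0.849, 19 reads), hsa-miR-152-3p (0.732, 74 reads) and hsa-miR-1268a (0.721, 9 reads). eca-miR-499-5p was nearest to hsa-miR-7977 (0.853, 5 reads), eca-miR-365 (0.797, 14 reads) and hsa-miR-331-5p (0.772, 101 reads). The last of these had 984 CPM in G1, 680 in D1 and 673 in P1 and at most 43.3 in any other library. eca-miR-133a was nearest to eca-miR-346 (0.847, 4 reads), eca-miR-542-3p (0.833, 24 reads) and hsa-miR-6131 (0.832, 4 reads). No muscle miRNA was among the 3 nearest of another. Within the set, Pearson's r with eca-miR-133a was 0.698 for eca-miR-1 and 0.682 for eca-miR-206. The other pairs had -0.157 to 0.353. Values with eca-miR-133a rest on its 55 reads.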

How the data were processed

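Small-RNA libraries (TruSeq) of FF-EVs were processed by the authors in CLC Genomics Workbench 21. Reads were matched to miRBase 22 mature and precursor miRNAs with at most 2 mismatches, equine entries first. As deposited, the numbers are CPM on a TMM-adjusted signal scale, computed by the authors. Per the labels, bcl2fastq and DESeq2 were also used. Dividing by each library's smallest value gave whole reads for 100% of values (tolerance 0.01 read).

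The 417 miRNAs above 10 CPM in at least 2 of 3 libraries of a stage were fitted with limma 3.58.1 (R 4.3.3) on log2(CPM + 10) with a trended variance, stage as factor and all 9 libraries, with Benjamini-Hochberg adjustment over all of them. The pseudocount shrinks the changes of sparse miRNAs, and fitted changes, as differences of mean logs, can be larger or smaller than ratios of pooled reads. A miRNA was called at an adjusted p under 0.1 if it differed at least 2-fold. Stages were also compared by exact permutation over 280 splits. edgeR 4.0.16 and DESeq2 1.42.0 were run on recovered reads as alternatives, beside other pseudocounts, filters, variance models and scalings, a replicate block, summed names and leaving out each library. The limma calls in P vs. D were tested on simulated data in which every miRNA was given the same spread between libraries. Read shares and read ratios have exact Clopper-Pearson intervals. Bounds on ratios use a floor of 3 reads over a group, and limits of single libraries 3 reads in that library.

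Named were all muscle entries with a read, for each member the 3 miRNAs of highest Pearson's r, and of each list the 2 most abundant and the called entries. The muscle entries and the lists were chosen with earlier results of these data known. Sequences other than that of eca-miR-133a were not used. Python 3.11.15 (numpy 2.4.6, pandas 2.3.3, scipy 1.17.1, matplotlib 3.10.9) was used for the other steps.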

Additional observations from a re-analysis of the deposited data

How the results depend on the processing

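eca-miR-1 and eca-miR-206 kept the sign of each of their 3 fitted changes under 12 alternatives of method and with each of the 9 libraries left out, and eca-miR-1 was never called. The ratio of pooled reads of eca-miR-206 in D vs. G, 0.722, turned to 1.14, 1.10 and 1.09 without D2, D3 or G2. Whether the replicate numbers pair the libraries was not settled. Of the 9 same-numbered pairs, 2 had deviations from the stage means that correlated over 0.1 (range -0.055 to 0.141). Among the libraries of another stage, the closest had the same number in 9 of 18 cases. Within each stage eca-miR-499-5p was highest in G1, D1 and P1. Its standard error in P vs. G was 1.21 with the replicate block and 1.88 without it. The limma p with the block was 0.0450 unadjusted and 0.583 adjusted. With the replicate block the counts of called miRNAs were 4, 3 and 11 in D vs. G, P vs. G and P vs. D, against 4, 2 and 11 without it, and no muscle miRNA was called. In P vs. D eca-miR-206 (6.18, not called) was called under total-sum scaling (6.51), and leaving out single libraries gave 5.04 to 8.47, called without G1 or D1. In P vs. D eca-miR-133a (4.30, not called) was called with a pseudocount of 1 (7.53), in DESeq2 (5.99) and with the filter on all 3 libraries of a stage (4.30), and leaving out single libraries gave 3.42 to 4.91, called without G2. In D vs. G it was called in DESeq2 (-5.97). Leaving out single libraries gave -0.060 to 2.12 for eca-miR-133a in P vs. G, with the sign turned without P2. For eca-miR-499-5p it gave -3.09 to 0.75 in D vs. G and -3.48 to 0.36 in P vs. D.

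Counts over all 417 miRNAs moved more. In D vs. G (4 called) there was 1 with only the 2 stages in the fit or under total-sum scaling and 14 with DESeq2, with 1 to 8 when single libraries were left out. In P vs. G (2 called) there were 0 with no filter, with only the 2 stages or under total-sum scaling, 1 without the variance trend and 14 with DESeq2, with 0 to 19 (19 without G1) when single libraries were left out. In P vs. D (11 called) there were 7 with a pseudocount of 50 or with edgeR, 17 under total-sum scaling without the top entry, 20 with the filter on all 3 libraries, 21 with only the 2 stages and 46 with DESeq2, with 0 to 16 when single libraries were left out (0 without P1 or P2, with 49 and 48 at an unadjusted p under 0.05 in limma). Total-sum scaling turned the P vs. D calls to 10 higher and 3 lower, against 4 and 7. Adjusted p-values were missing in DESeq2 for 70, 189 and 150 miRNAs. The causes were not tested.

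The 55 reads of eca-miR-133a and the libraries without a read of eca-miR-206 limit what the data can show.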
